A study of Mus musculus with 11 samples.

Results

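The interleukin-1 (IL-1) and IL-18 system was followed through 9 genes, taken by symbol from the 14604 genes of the deposited table. They are the ligand genes Il1a, Il1b and Il18, the antagonist gene Il1rn, the receptor genes Il1r1, Il1r2 and Il1rl1, and the pair Il18r1 and Il18rap, which encode the chains of the IL-18 receptor. All 9 had a value in each of the 11 libraries and passed the filter on low values. The libraries were made from regulatory T cells (Tregs) sorted as live CD4+GITR+CD25+ cells from MC38 tumors, a mouse colon adenocarcinoma line grown as a graft (tumor-infiltrating or TI-Tregs), and from spleens which, by the study's methods, were taken from the same mice. Mice labelled CD177flox/flox, called wild type (WT) here, gave 3 spleen and 3 tumor libraries. Mice labelled CD177flox/flox/FOXP3-CreYFP, called knockout (KO), gave 3 spleen and 2 tumor libraries. All mice therefore carried the floxed CD177 gene, no Cre is named for the WT mice, and in KO mice Cre was driven by Foxp3, so that deletion is directed to cells that express Foxp3. The values used here do not include Cd177, so its level gave no check on the genotypes. The labels give no age for these mice and do not say whether each library came from a separate mouse, so p-values measure the spread between these libraries, which may be technical.

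IL-1α and IL-1β signal through the type 1 IL-1 receptor (Il1r1) together with an accessory chain (Il1rap), and the signal runs through MYD88 and IRAK kinases to NF-kB. The pathway is restrained at several points. The receptor antagonist encoded by Il1rn occupies the receptor without signalling, and the type 2 receptor encoded by Il1r2 is a decoy that binds ligand and has no signalling domain. IL-1β and IL-18 are made as precursors that caspase-1 cleaves in inflammasomes. Il1rl1 encodes ST2, the receptor for IL-33, which is known from Tregs of non-lymphoid tissues, and Tregs are also known to carry Il1r2 and the IL-18 receptor. Il1a, Il1b and Il1rn are best known from activated myeloid cells.

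The values were log2(n + 1), where n is the authors' expression value summed by gene symbol. Whether n is corrected for transcript length is not stated, so levels were not compared between genes, and every difference is on this log2 scale, which understates the change of a gene whose n is low. Tumor and spleen libraries were compared by limma with Benjamini-Hochberg adjustment over all 13897 genes tested. In that comparison 8 of the 9 genes were higher in tumor libraries and none was lower, where 43.1% of all genes tested were called higher. Of the 13897 genes tested, 4988 were called lower. The median difference was 2.80 over the 9 genes and 0.08 over all genes tested. For 7 of the 9 genes every tumor library lay above every spleen library, a pattern shown by 35.2% of all genes tested.

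Several libraries and cell types may bear on these values. The sorted tumor libraries carried myeloid transcripts. All 18 genes of a myeloid marker list were higher in tumor libraries, and their summed n ran from 329 to 624 in spleen libraries and from 14090 to 20235 in tumor libraries. Lyz2, the lysozyme of macrophages and granulocytes, rose by 7.60 ± 0.46 (SE), and Cd14 by 8.19 ± 0.31 (SE). The Treg and T cell list kept summed n of 2230 to 2498 in spleen and 1612 to 2457 in tumor libraries, with 2 of its 12 genes higher, 7 lower and 3 not past the test. Foxp3, the lineage factor of Tregs, fell by 0.85 ± 0.22 (SE) but was present in all libraries at 4.72 or above. In bulk samples such as these, fewer cells of a type and less RNA per cell cannot be told apart. The other lists gave 4 of 5 tested neutrophil genes higher (summed n from 15.6 to 23.5 in spleen and from 45.3 to 96.5 in tumor libraries), 5 of 6 fibroblast genes higher (from 2.57 to 3.52 and from 493 to 1040), 6 of 10 CD8 T and NK cell genes higher (from 32.1 to 82.7 and from 221 to 548), 5 of 7 B cell genes lower (from 19.97 to 69.9 and from 11.8 to 26.8), 1 of 4 mast cell and basophil genes higher and 2 lower (from 6.81 to 17.4 and from 5.27 to 15.3), and 1 of 4 epithelial genes higher and 1 lower (from 9.57 to 17.3 and from 17.8 to 31.2). Of all 13897 genes tested, 5983 were called higher and 4988 lower. No gene listed was at exactly 0. The neutrophil genes S100a8, S100a9 and Ly6g and the mast cell gene Cpa3 were not analysed here. The part of these other cell types in the differences of the 9 genes was not tested. The first WT tumor library stood apart from the other 4 for 3 of the 9 genes, and values with and without it are given below.

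The 2 IL-1 ligand genes lie side by side on the minus strand of chromosome 2 of GRCm38 (mm10), Il1a at chr2:129299610-129309972 and Il1b at chr2:129364570-129371139. The 250 bases before the start sites of these ligand genes are shown, with the motif TATAAA and, where present, TGANTCA (a letter string bound by AP-1) in capitals. Both genes had among the largest differences in the table. The windows of Il1rn, whose difference was larger than that of Il1a (7.55 against 7.24), are not shown and held no TATAAA. The sequences are those of RefSeq for GRCm38, written 5′ to 3′ along the gene, chr2:129309973-129310222 for Il1a and chr2:129371140-129371389 for Il1b.
Il1a: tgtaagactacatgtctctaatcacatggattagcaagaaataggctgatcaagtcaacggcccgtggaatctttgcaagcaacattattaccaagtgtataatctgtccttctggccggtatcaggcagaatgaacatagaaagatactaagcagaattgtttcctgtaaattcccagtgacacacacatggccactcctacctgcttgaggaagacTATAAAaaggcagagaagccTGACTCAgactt
Il1b: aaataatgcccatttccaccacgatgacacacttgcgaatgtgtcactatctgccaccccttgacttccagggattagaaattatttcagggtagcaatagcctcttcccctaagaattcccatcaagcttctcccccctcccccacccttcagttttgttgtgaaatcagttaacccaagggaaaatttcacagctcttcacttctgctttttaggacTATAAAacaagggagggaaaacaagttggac
TATAAA begins 32 bases before the start of Il1a and 31 bases before that of Il1b. TGACTCA begins 12 bases before the start of Il1a. Over 32851 windows of 250 bases before annotated starts, and searching both strands, TATAAA was found in 12.4% and TGANTCA in 6.75%. TGANTCA reads as the same motif on both strands and was counted once per site. Among the 15 windows of the 9 genes, 3 held TATAAA (Il1a, Il1b and Il18), 2 held TGANTCA (Il1a and Il1rn), 1 held the NF-kB consensus (the second start of Il1r1), which 7.25% of all windows held, and 2 held AGATAA, both of Il1rl1. A match describes letters in the window and no bound site.

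Il1b, the ligand gene of the inflammasome pathway, showed the largest rise of the 13897 genes tested with genotypes pooled and within KO, and the 3rd largest within WT. In spleen libraries its log2(n + 1) ran from 0.46 to 2.68 with a median of 1.12. In tumor libraries it was 8.43, 10.76 and 10.61 in the WT and 10.62 and 10.87 in the KO libraries. The lowest tumor library was 5.75 above the highest spleen library, which was the second KO library. The difference was 8.95 ± 0.46 (SE, adjusted p = 1.85e-09, limma). Without the first WT tumor library it was 9.41, and without the second KO spleen library it was 9.22. That spleen library also had the highest Lyz2 of the 6, at 6.87 against 3.83 to 5.34 in the others, and the part of such transcripts in the Il1b value was not tested.

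Il1a, the ligand gene whose precursor is already active, was near the floor in spleen libraries, where log2(n + 1) ran from 0.41 to 0.69 with a median of 0.53. In tumor libraries it was 4.83, 8.77 and 8.54 in the WT and 8.22 and 8.53 in the KO libraries. One tumor library was thus far below the other 4, yet no tumor library overlapped with a spleen library. The difference was 7.24 ± 0.57 (SE, adjusted p = 1.01e-07, limma), 13th by size among all genes tested, and it was 7.98 ± 0.11 (SE) without the first WT tumor library. Exons of Il1a overlap those of Gm14023 on the opposite strand, and exons of Il1b overlap those of Il1bos. Whether reads were assigned by strand is not stated and neither antisense gene is among the values used here, so reads of the partners cannot be told apart from those of the ligand genes.

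Il1rn, the receptor antagonist gene (chr2:24336853-24351494, plus strand), rose with the ligands. Its spleen values ran from 0.49 to 1.02 with a median of 0.89. Its tumor values were 7.18, 8.74 and 8.77 in the WT and 8.41 and 8.80 in the KO libraries. The groups were 6.15 apart at their nearest libraries. The difference was 7.55 ± 0.26 (SE, adjusted p = 6.68e-11, limma) and 7.85 without the first WT tumor library. Il1rn produces a secreted and intracellular forms from different first exons, and the summed values do not separate them.

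**Figure D1:**
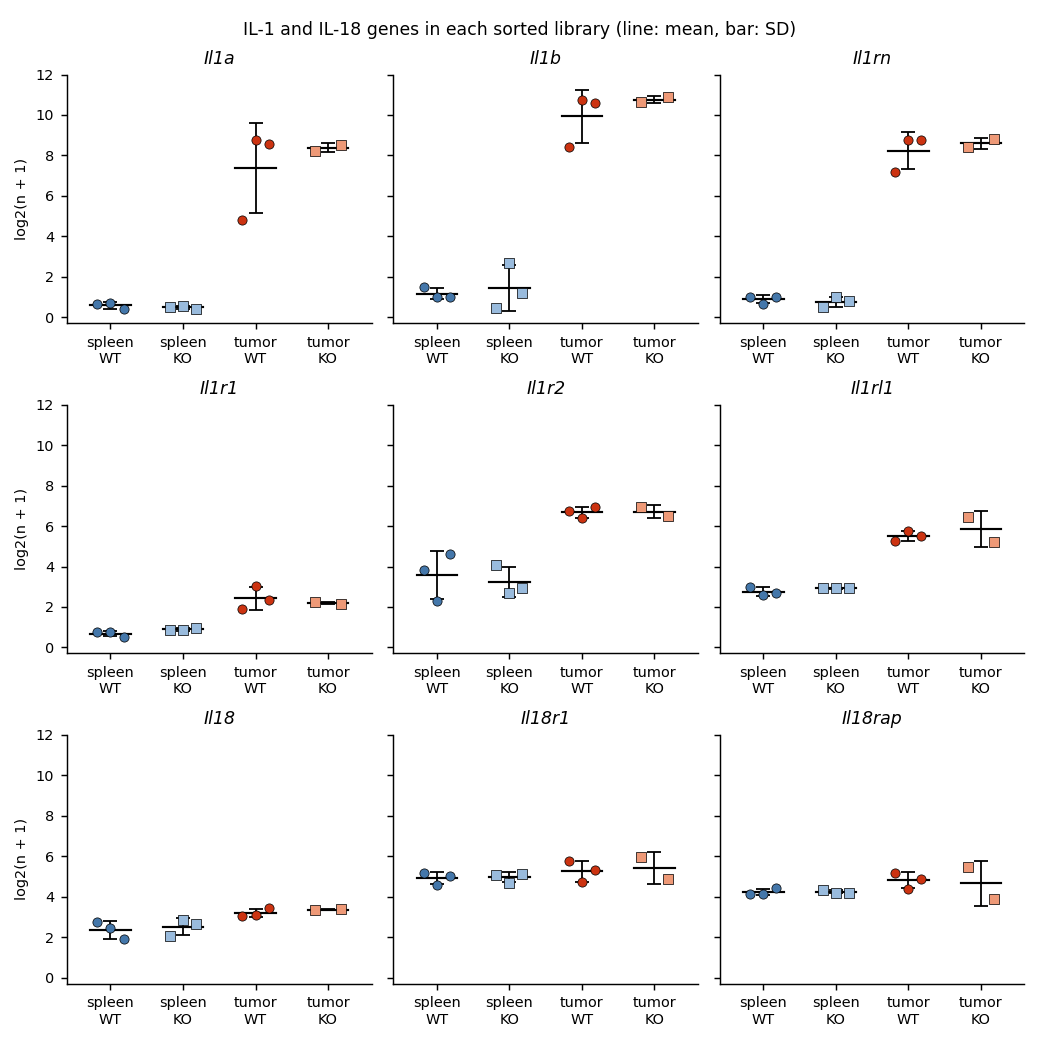
Log2(n + 1) of the 9 genes in each library (points) by tissue and genotype, with the group mean (line) and SD (bar), WT as circles and KO as squares. Il1a, Il1b and Il1rn run from near the floor in spleen to between 4.83 and 10.87 in tumor libraries, while Il18r1 and Il18rap overlap between the tissues.

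Il1rn rose less than Il1b when both were read from the same library. It was not set against Il1a in this way, and the pooled differences were 7.55 for Il1rn and 7.24 for Il1a. The difference Il1rn minus Il1b averaged -0.48 in the 6 spleen libraries (SD 0.63) and -1.88 in the 5 tumor libraries (SD 0.38), a change of -1.40 (exact two-sided permutation test, p = 0.00866, Benjamini-Hochberg adjusted 0.0115 over 4 such differences). The tissues overlapped in 1 spleen library, the second of the KO, at -1.70, where the other 5 spleen libraries lay between -0.46 and 0.04. A factor common to a library cancels in such a difference almost wholly for high values, but n is near the added 1 in spleen, where both genes were compressed.

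Il1r2, the decoy receptor gene (chr1:40074079-40125231, plus strand), was already present in all spleen libraries and was higher in every tumor library. Which of the sorted cells carried it was not tested. Its spleen values were widely spread, 3.84, 2.30 and 4.63 in the WT and 4.08, 2.71 and 2.92 in the KO libraries. Its tumor values lay close together, at 6.72, 6.41 and 6.94 in the WT and 6.95 and 6.49 in the KO libraries. The SD was 0.90 over the spleen and 0.25 over the tumor libraries. The difference was 3.29 ± 0.36 (SE, adjusted p = 2.19e-06, limma). The first WT tumor library, which was low for Il1a, Il1b and Il1rn, was at the middle of the 5 for Il1r2, and the difference without it was 3.28.

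Il1r1, the signalling receptor gene (chr1:40225080-40317257, plus strand), was low in both tissues. Spleen values ran from 0.53 to 0.98 with a median of 0.81, and tumor values were 1.91, 3.05 and 2.35 in the WT and 2.23 and 2.15 in the KO libraries. The tissues did not overlap, and the difference was 1.54 ± 0.17 (SE, adjusted p = 2.98e-06, limma). In n, Il1r1 lay between 0.44 and 0.98 in spleen and between 2.75 and 7.27 in tumor libraries, so this rise starts from a level near the floor. Il1r2 minus Il1r1 within a library averaged 2.62 in the 6 spleen libraries (SD 1.0002) and 4.37 in the 5 tumor libraries (SD 0.59). The change of 1.75 passed the exact permutation test (two-sided, p = 0.00866, adjusted 0.0115 over the 4 differences), although 1 tumor library, the second WT at 3.36, lay below 1 spleen library at 4.10. With a pseudocount of 0.1 in place of 1 the change was 1.11 and no longer passed (exact two-sided permutation test, p = 0.104).

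**Figure D2:**
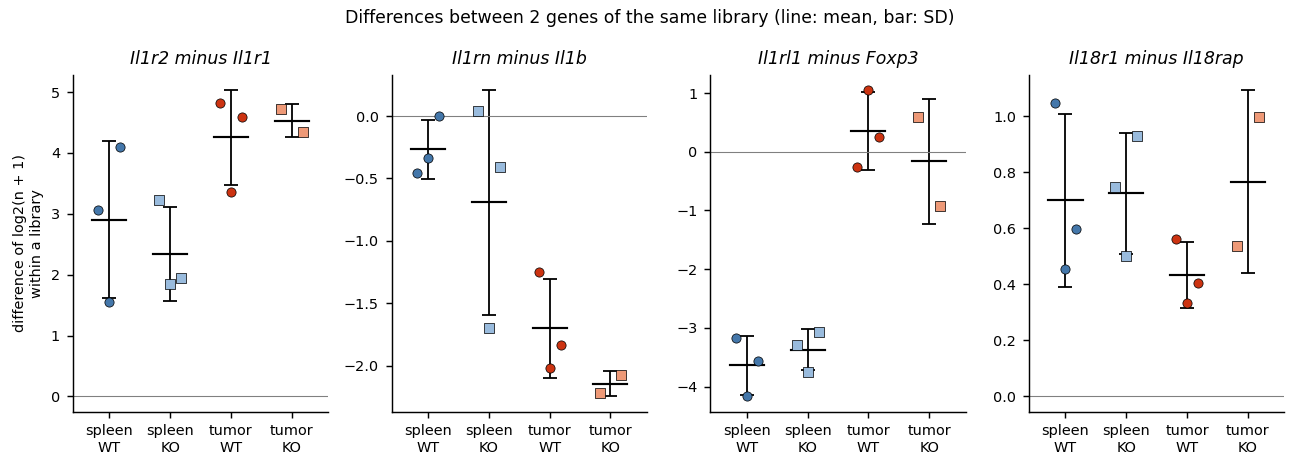
Differences of log2(n + 1) between 2 genes of the same library (points) by tissue and genotype, with the group mean (line) and SD (bar), each panel on its own scale. Il1rl1 minus Foxp3 moves from between -4.17 and -3.07 in spleen to between -0.92 and 1.05 in tumor libraries, and Il18r1 minus Il18rap overlaps between the tissues.

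Il1rl1, which encodes the IL-33 receptor ST2 (chr1:40429570-40465415, plus strand), separated the tissues with little spread in spleen. The bases before its first annotated start, chr1:40429320-40429569 in RefSeq on GRCm38, are shown because GATA3 is known to act on this gene, with AGATAA, a letter string bound by GATA factors, in capitals.
Il1rl1: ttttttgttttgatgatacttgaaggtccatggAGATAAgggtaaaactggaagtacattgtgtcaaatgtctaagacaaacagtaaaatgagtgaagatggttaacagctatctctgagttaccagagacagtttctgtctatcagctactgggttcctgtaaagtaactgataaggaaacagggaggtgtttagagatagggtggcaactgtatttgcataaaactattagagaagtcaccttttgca
AGATAA begins 217 bases before the start, and 9.99% of all windows held this motif. Spleen values of Il1rl1 were 2.996, 2.58 and 2.71 in the WT and 2.94, 2.92 and 2.91 in the KO libraries. Tumor values were 5.28, 5.77 and 5.49 in the WT and 6.46 and 5.20 in the KO libraries. The lowest tumor library was 2.21 above the highest spleen library, and the difference was 2.80 ± 0.19 (SE, adjusted p = 2.68e-08, limma). The sorted population held less Foxp3 in tumor than in spleen, so Il1rl1 was also set against Foxp3. Il1rl1 minus Foxp3 averaged -3.50 in the 6 spleen libraries (SD 0.41) and 0.14 in the 5 tumor libraries (SD 0.76), a change of 3.65 with no overlap (p = 0.00433 in a two-sided exact permutation test, the lowest value possible for 6 against 5 libraries, adjusted 0.0115 over the 4 differences). Il1rl1 alone already separated the tissues and Foxp3 was lower in tumor libraries. The lack of overlap and the p-value follow from these values and are no separate evidence. ST2 exists as a membrane and a soluble form from the same gene, which the summed values do not separate.

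Among 15 genes linked to ST2-expressing tissue Tregs, 12 were higher in tumor libraries, 2 were lower and 1 did not pass. Of all genes tested 43.1% were called higher. The median difference was 1.95 over the 15 genes against 0.08 over all genes tested. The largest rises were of Areg, which encodes the repair factor amphiregulin (4.77 ± 0.24 SE), the transcription factor gene Nfil3 (3.54 ± 0.18 SE), the costimulatory receptor gene Tnfrsf9 (3.33 ± 0.13 SE) and the cytokine gene Il10 (2.95 ± 0.28 SE). Gata3 fell by 0.50 ± 0.18 (SE, adjusted p = 0.0248, limma), and Ikzf2, which encodes Helios, fell by 1.09 ± 0.17 (SE). The part of other cell types, such as the myeloid cells, in the differences of these genes was not tested.

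Il18, the third ligand gene (chr9:50554827-50581840, plus strand), differed far less between the tissues than Il1a and Il1b. Spleen values ran from 1.89 to 2.83 with a median of 2.57. Tumor values were 3.04, 3.11 and 3.42 in the WT and 3.35 and 3.38 in the KO libraries. The nearest libraries of the tissues were 0.21 apart. The difference was 0.82 ± 0.17 (SE, adjusted p = 0.00076, limma). With equal library totals it was 0.28 (adjusted p = 0.205), a scaling under which the median over all genes was -0.44 instead of 0.08.

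Il18r1 (chr1:40465552-40500854, plus strand), which binds IL-18, overlapped between the tissues. Spleen values ran from 4.60 to 5.16 with a median of 5.04, and tumor values were 5.76, 4.72 and 5.31 in the WT and 5.99 and 4.87 in the KO libraries. The tumor libraries spread over the spleen values and above them. The difference was 0.38 ± 0.21 (SE) with a 95% confidence interval from -0.08 to 0.84, and it did not pass (adjusted p = 0.115, limma). With equal library totals its direction turned (-0.23), and without the second WT tumor library it was 0.53 and passed (adjusted p = 0.0268). With the library number as a block it was 0.42 and also passed (adjusted p = 0.0155, limma), though the labels do not tie a number to a mouse.

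Il18rap (chr1:40515362-40551705, plus strand), the accessory chain, lay just inside the threshold. Its spleen values ran from 4.12 to 4.41, and its tumor values were 5.19, 4.39 and 4.90 in the WT and 5.45 and 3.87 in the KO libraries. The second KO tumor library was below all 6 spleen libraries. The difference was 0.53 ± 0.23 (SE, adjusted p = 0.0472, limma). The call was lost when any of 9 of the 11 libraries was left out, with equal library totals the direction turned (-0.071), and with quantile normalization or median centring the difference was 0.27 and 0.31 and did not pass. Il18r1 minus Il18rap averaged 0.71 in the 6 spleen libraries (SD 0.24) and 0.57 in the 5 tumor libraries (SD 0.26), a change of -0.15 that did not pass (p = 0.342, two-sided exact permutation test). The tumor library lowest for Il18rap was also lowest of the 5 for 8 of the 10 CD8 T and NK cell genes, with a median deviation of -1.18 from the median of the others, among them Cd8a, at 4.07 against 5.46 to 5.98, and the natural killer receptor gene Klrd1, at 4.31 against 5.55 to 5.94. Over all genes tested it was the lowest of the 5 for 18.4% and the highest for 20.6%. Of the 12 Treg and T cell genes it was lowest for 6 and highest for 1, Foxp3, at 6.12 against 4.72 to 5.87. The part of such cells in the Il18rap values was not tested.

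**Figure D3:**
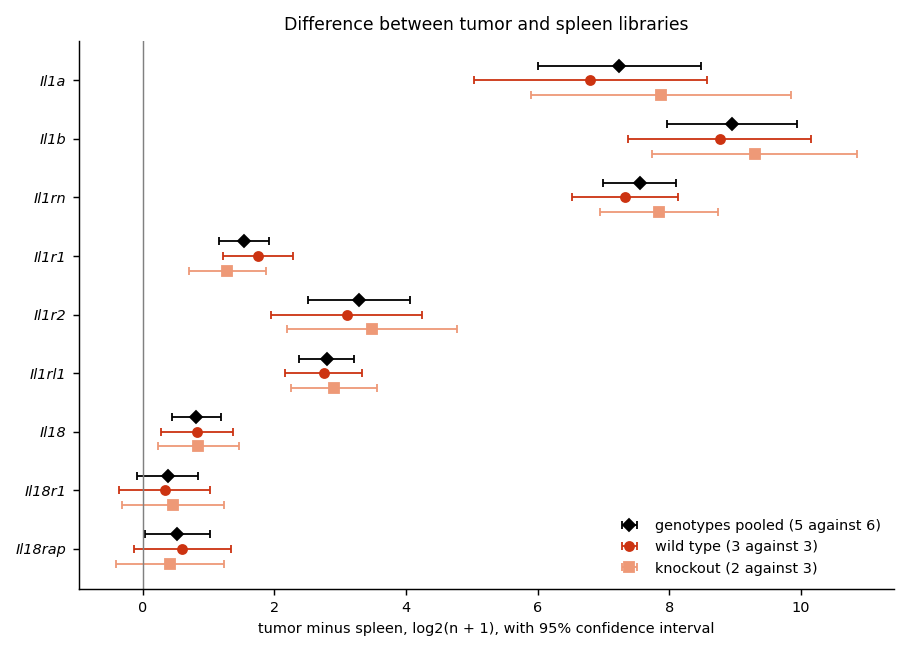
Tumor minus spleen difference in log2(n + 1) for the 9 genes with its 95% confidence interval, for genotypes pooled (diamonds), WT (circles) and KO (squares). The intervals of Il1a, Il1b and Il1rn lie above 5, and those of Il18r1 and Il18rap within each genotype include 0.

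The 5 receptor genes stand in a row on chromosome 1, in the order Il1r2, Il1r1, Il1rl2, Il1rl1, Il18r1 and Il18rap when the IL-36 receptor gene Il1rl2 is counted. From the start of Il1r2 to the end of Il18rap the row spans 477627 bases, and Il1rl1 and Il18r1 are 136 bases apart. Along the row the difference between tissues was 3.29, 1.54, 1.16, 2.80, 0.38 and 0.53. Il1rl1 and its neighbour Il18r1, the closest pair, thus differed by 2.80 and 0.38 between the tissues. Map4k4, a kinase gene and the outer neighbour on the Il1r2 side, fell by 0.61 ± 0.11 (SE, adjusted p = 0.00015, limma), and the sodium-proton exchanger genes Slc9a4 and Slc9a2 on the other side were not analysed here.

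**Figure D4:**
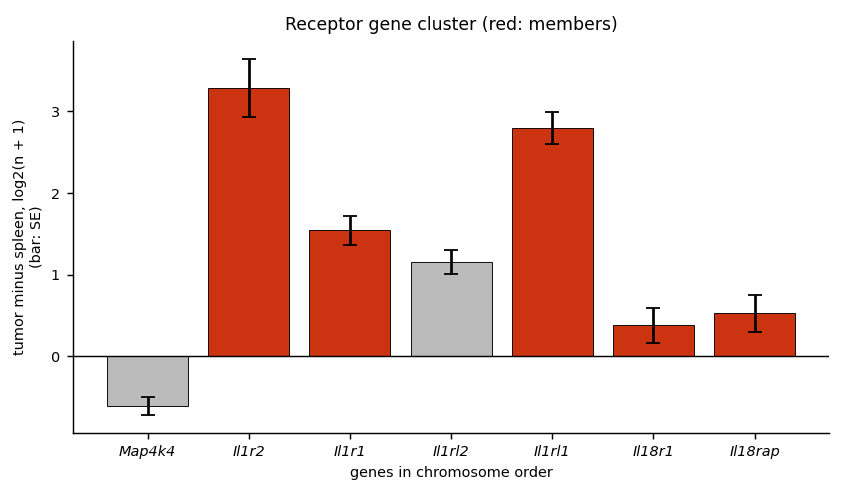
Tumor minus spleen difference in log2(n + 1) with its SE (bars) for the genes of the receptor row in chromosome order, members in red and neighbours in grey. Il1r2 at 3.29 and Il1rl1 at 2.80 stand above their neighbours, and Map4k4 is below 0.

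The 9 genes were then compared between genotypes. Within WT libraries 7 of the 9 genes were higher in tumor, where 39.2% of all genes were called higher, and within KO libraries 7 of the 9 were higher, where 36.2% of all genes were. In both genotypes the 2 genes that did not pass were Il18r1 and Il18rap. The Il18 call was lost in 4 of 23 alternatives within WT and in 8 of 23 within KO, and Il18rap passed within WT in 3 of 23. The WT and KO differences rest on the means of different libraries. Their SEs and p-values share an estimate of the spread from all libraries, so they are not fully separate. For Il1b the difference was 8.76 ± 0.63 (SE) in WT and 9.30 ± 0.70 (SE) in KO, and for Il1rl1 it was 2.75 ± 0.27 (SE) and 2.91 ± 0.30 (SE). For Il1r1 it was 1.75 ± 0.24 (SE) in WT and 1.29 ± 0.27 (SE) in KO. The difference between genotypes itself was tested as an interaction, which was called for 0 of the 9 genes by limma, with 0% of all genes called and 0 of the 9 at an unadjusted p under 0.05, where 383 of 13897 genes were. Its intervals were wide. For Il1a the interaction was 1.08 with a 95% confidence interval from -1.57 to 3.73, and for Il1rl1 it was 0.15 with an interval from -0.73 to 1.04.

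Libraries labelled KO were compared with those labelled WT directly in each tissue. In spleen Tregs 0 of the 9 genes differed by limma, where 0% of all genes did, and 0 of the 9 had an unadjusted p under 0.05, where 281 of all genes had. The spleen estimates ran from -0.35 for Il1r2 to 0.28 for Il1b. The spread in this test is shared with the tumor libraries, which widens the spleen interval of Il1a (from -1.85 to 1.68). Its SD was 0.15 over the WT and 0.07 over the KO spleen libraries. In TI-Tregs 0 of the 9 differed as well, where 0.0072% of all genes (1 gene) did, and 0 of the 9 had an unadjusted p under 0.05, where 634 of all genes had. The tumor estimates ran from -0.24 for Il1r1 to 0.995 for Il1a, whose interval ran from -0.98 to 2.97. For Il1a the SD was 2.21 over the 3 WT and 0.22 over the 2 KO tumor libraries, and the first WT library was the low one. The intervals were narrower for Il1r1 (from -0.84 to 0.35) and Il1rl1 (from -0.34 to 0.97).

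Within the tumor group the 9 genes did not vary together. The first WT tumor library was below the other 4 for 5 of the 9 genes, by 3.70 for Il1a, 2.26 for Il1b and 1.58 for Il1rn against the median of the others, but it was above that median for Il18r1 and Il18rap by 0.67 and 0.55. Over all genes tested this library was the lowest of the 5 for 25.1% and the highest for 17.2%. The inflammasome sensor gene Nlrp3 was 5.41 there and 7.32 to 8.14 in the others, the NF-kB regulator gene Nfkbiz was 6.85 against 8.13 to 8.67, and Cd14 was 9.01 against 9.99 to 10.50. Of the 18 myeloid genes, 12 were lower there than in the other 4 tumor libraries and none was higher than in all of them, with a median deviation of -0.31 from the median of the others (Lyz2 was 12.02 against 12.16 to 12.73). Of the 5 neutrophil genes 1 was below the others, Trem1 at 4.01 against 5.002 to 5.72, and the list's median deviation was 0.17. Of the 12 Treg and T cell genes, 6 were higher there than in the other 4 and none was lower, with a median deviation of 0.46, and of the 10 CD8 T and NK cell genes 5 were higher and 1 was lower, with a median deviation of 0.38. The part of these cell types in the values of the 9 genes in this library was not tested. Il1rl1, Il18r1 and Il18rap were instead highest in the first KO tumor library, and so was Il1r2 by little (6.95 against 6.94 in the third WT library). That library was highest of the 5 for 20.5% of all genes tested and lowest for 25.4%. It was above the other 4 for 9 of 15 ST2 tissue Treg genes, 5 of 12 Treg and T cell genes and 6 of 7 B cell genes, and below them for 0 of each. Of the 18 myeloid genes it was above them for 1 and below for 4.

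**Figure D5:**
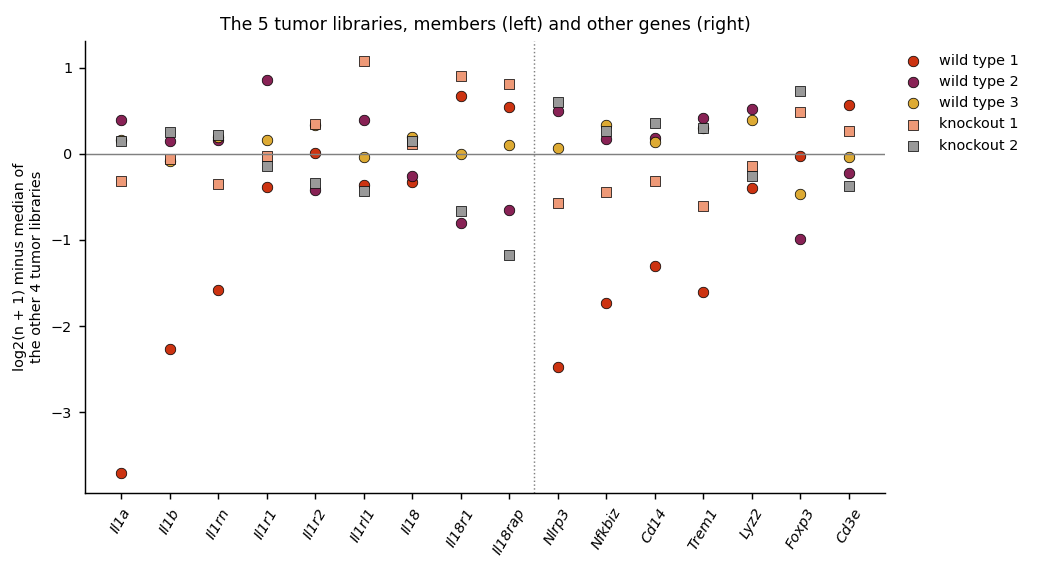
Log2(n + 1) of each tumor library minus the median of the other 4, for the 9 genes (left of the dotted line) and 7 other genes (right), WT as circles and KO as squares. The first WT library is lowest for Il1a, Il1b, Il1rn, Nlrp3, Nfkbiz, Cd14 and Trem1, and stands near the others for Il1r2.

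The genes with the most similar profile differed between the ligands and the receptors. Similarity was measured as the root mean square difference of log2 values centred on each gene's mean over the 11 libraries. Nearest to Il1a were Acod1 (0.57) and Clec4e (0.59), nearest to Il1b were Ptgs2 (0.55) and Cd14 (0.58), and nearest to Il1rn were Msr1 (0.31) and Clec4e (0.44). Nearest to Il1r2 were Cebpa (0.41) and Penk (0.44), to Il1rl1 Dgat1 (0.24) and Mmp25 (0.24), and to Il1r1 Adamts5 (0.13) and Tnfrsf23 (0.13). Il18 was nearest to Pilrb2 (0.17) and Snx20 (0.19), Il18r1 to Igsf9b (0.19) and Fbxo44 (0.21), and Il18rap to Ctsw (0.19) and Ctla2a (0.20). The libraries fall into the 2 tissues, so that this measure reflects mainly the size of the tissue difference and the tumor libraries that stand apart.

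Other genes of the pathway moved in both directions. Of the IL-1 family relatives, 4 could be tested and 3 were higher, where 43.1% of all genes tested were. The IL-18 binding protein gene Il18bp, a soluble inhibitor, rose by 1.16 ± 0.10 (SE), Il1rl2 by 1.16 ± 0.14 (SE) and the accessory chain gene Il1rap by 0.67 ± 0.12 (SE). Sigirr, which encodes an inhibitory receptor of the family, fell by 1.26 ± 0.09 (SE, adjusted p = 4.99e-08, limma). Il33, the ligand gene of ST2, was not analysed here. With Il1r2, Il1rn and Il18bp higher and Sigirr lower, the genes that restrain the pathway did not share a direction.

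Of 15 tested genes for inflammasomes and cytokine processing, 10 were higher, 4 were lower and 1 did not pass, with a median difference of 0.65. Of all genes tested 43.1% were called higher. Nlrp3 rose by 6.11 ± 0.42 (SE) and Mefv, the pyrin gene, by 2.99 ± 0.26 (SE). The sensor gene Naip2 rose by 1.60 ± 0.10 (SE) and Casp1, the enzyme that cleaves IL-1β and IL-18, by 1.26 ± 0.12 (SE). P2rx7, the ATP-gated channel gene upstream of NLRP3, fell by 0.75 ± 0.09 (SE), Txnip by 0.75 ± 0.18 (SE), the DNA sensor gene Aim2 by 0.59 ± 0.14 (SE) and Nek7 by 0.27 ± 0.05 (SE).

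Of 24 genes for signalling below the IL-1 receptor, 11 were higher, 9 were lower and 4 did not pass, with a median difference of 0.12, close to that over all genes. The share called higher over all genes tested was 43.1%, and 4988 of the 13897 were called lower. The NF-kB feedback inhibitor gene Nfkbia rose by 2.02 ± 0.15 (SE), Nfkbiz by 1.57 ± 0.27 (SE), the adaptor gene Tollip by 1.14 ± 0.08 (SE) and the kinase gene Irak2 by 1.07 ± 0.08 (SE). Ikbkb fell by 1.08 ± 0.07 (SE), the ubiquitin ligase gene Peli1 by 0.96 ± 0.11 (SE), Chuk by 0.81 ± 0.13 (SE) and Tab3 by 0.52 ± 0.15 (SE). Myd88, the adaptor shared by the IL-1, IL-18 and IL-33 receptors, rose by 0.47 ± 0.13 (SE, adjusted p = 0.00449, limma).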

How the data were processed

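Sorted Tregs of tumors and spleens gave 11 RNA libraries, grouped by the tissue and genotype in the labels. The authors depleted ribosomal RNA, pseudoaligned reads with kallisto (version not given in the sources used here) to mm10, processed the estimates with sleuth 0.30.0, summed them by gene symbol and deposited the result for 14604 genes as log2(n + 1). The scaling of n is not stated. Totals of n ran from 712832 to 844331 in spleen and from 1103159 to 1304548 in tumor libraries. The depth in reads is unknown, so the spread between libraries alone sets the precision.

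The values were used as deposited. Genes with a mean of at least 0.5 were kept (13897, with 707 removed). limma 3.58.1 in R 4.3.3 (lmFit, eBayes with trend) compared the tissues with genotypes pooled, and then group means of tissue and genotype, with calls at a Benjamini-Hochberg adjusted p below 0.05. Pooling without covariates follows the unpaired tests of the study. Differences between 2 genes within a library were compared by exact permutation tests in scipy 1.17.1. The fit was tested on simulated data. Gene positions and exons came from GENCODE release M21, and start windows from the RefSeq table for GRCm38.

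The 9 genes and all lists were chosen with earlier results of these data known. The genes named are those 9, at most 4 genes per pathway list and direction with the largest differences, the 2 genes most similar to each of the 9, the neighbours of the receptor row, and genes of the marker lists. Myd88, Trem1, Klrd1, Cd8a, Lyz2 and Cd14 were singled out after their values were seen. Alternatives changed the scaling, pseudocount, filter, variance model, correction, covariates, replicate block and libraries used.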

Additional observations from a re-analysis of the deposited data

Results flagged for a closer look

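Values apart from their group were sought in 50 groups of 5 or 6 libraries, and 6 were found, where chance would give about 2.5 at 1 in 20. Of these, 4 were in the first WT tumor library, which lay far below the other 4 tumor libraries: Il1a at 4.83 (8.22 to 8.77 in the others), Il1b at 8.43 (10.61 to 10.87), Il1rn at 7.18 (8.41 to 8.80), and the mean of the inflammasome and processing list at 4.41 (4.70 to 4.80). The other 2 were in the second KO spleen library. There Il1rn minus Il1b was -1.70, where the other 5 spleen libraries lay between -0.46 and 0.04, and the mean of the CD8 T and NK cell list was 3.07, where the others lay between 1.99 and 2.35.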

How the results depend on the processing

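The calls for Il1a, Il1b, Il1rn, Il1r1, Il1r2 and Il1rl1 held under every alternative run for the pooled comparison, except that Il1r1 was removed by the filter at a mean of 2 and has no value there. Within WT, Il18 was lost with quantile normalization (0.58, adjusted p = 0.058), equal library totals, Bonferroni or without the third WT spleen library (adjusted p = 0.0511), and Il18rap passed when only the compared groups were fitted or either KO tumor library was left out (adjusted p from 0.0135 to 0.0315). Within KO, Il18 was lost in 8 alternatives, the 3 scalings among them (adjusted p from 0.0510 to 1). In the pooled comparison the number of the 9 genes called ran from 6 (equal library totals or Bonferroni) to 9 (without the second WT tumor library). With Bonferroni correction Il18 (0.82) and Il18rap (0.53) were lost, and 3 genes stayed called within WT and 4 within KO. With equal library totals Il18 was 0.28 and not called, and the direction turned for Il18r1 (-0.23) and Il18rap (-0.071), for Il18r1 within WT (-0.26) and KO (-0.16) and for Il18rap within KO (-0.19). Il18rap was also lost with quantile normalization (0.27), median centring (0.31), no variance trend (0.53, adjusted p = 0.0526) and genotype as covariate (0.52). Over all 23 alternatives its value ran from -0.071 to 0.75. With one library left out, the pooled difference ran from 0.36 to 0.75 for Il18rap, with the call lost in 9 of 11 cases and kept without the second WT or the second KO tumor library, and from 0.22 to 0.53 for Il18r1. Within KO it ran from -0.099 to 1.02 for Il18r1 and from -0.37 to 1.21 for Il18rap, the low values without the first and the high values without the second KO tumor library, which leaves 1 KO tumor library that is assumed to vary like the other groups. With a pseudocount of 0.1 the change of Il1r2 minus Il1r1 was 1.11 and not past the test. The cause of these changes was not tested.

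The spleens came from the same mice as the tumors by the study's methods, but the labels do not tie a number to a mouse. Over all genes tested, same-numbered tumor and spleen libraries did not deviate together (correlations of -0.13, 0.01 and -0.07 in WT and 0.02 and 0.04 in KO). They were therefore not taken as pairs. The KO values come from the same tumor deviations with opposite sign, so they are not separate checks. Pairing is not excluded by this check, since single genes can differ from it. With the number as a block the SE was smaller for Il1r2 (0.25 against 0.36) and Il18r1 (0.12 against 0.21). It was also smaller for Il1a, Il1b and Il18rap, and larger for Il1rn, Il1r1, Il1rl1 and Il18. With the number as a replicate block, Il18r1 passed (0.42, adjusted p = 0.0155) and Il18rap did not (0.52, adjusted p = 0.0503), Il18 within KO did not (0.93, adjusted p = 0.0510), and no other call of the 9 genes changed. The block moved the count of all genes called between tissues from 10971 to 10512.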
